A study of Hordeum vulgare with 12 samples.

Results

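On barley chromosomes 1H to 7H, 132 of 30627 protein-coding genes (RefSeq gene spans, MorexV3 assembly) had 4 or more VRS5 DAP-seq peaks with at least 1 base within 15 kb of the gene. These genes were selected on the number of peaks alone, so that their peak counts, and all other values of the same peaks, are given as descriptions without a test. They made up 0.431% of the genes (95% Wilson interval 0.364 to 0.511). With 4 peaks there were 114 genes, with 5 peaks 15 genes, with 6 peaks 2 genes and with 10 peaks 1 gene. Below the limit, 515 genes had 3 peaks, 2275 had 2, 8254 had 1 and 19451 had none.

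VRS5 is the barley ortholog of maize TEOSINTE BRANCHED 1 and belongs to class II of the TCP transcription factors, a plant family whose members bind short GC-rich DNA sites as dimers. It restrains the outgrowth of tillers, the side shoots of a cereal, and of the lateral spikelets that decide whether a barley spike has rows of grain only at its centre or also at its sides. A site near a gene does not by itself show that the factor regulates that gene.

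The peaks came from DNA affinity purification sequencing, in which a tagged protein made in vitro captures fragments of purified genomic DNA. The bait was VRS5 (also named TB1), with the coding sequence of cv. Bowman, fused to FLAG, and the control bait was GFP fused to FLAG, each with 6 libraries of DNA from developing inflorescences of cv. Morex (100 mg a replicate), 4 weeks after sowing and at about Waddington stage 4. Both baits were offered the same kind of DNA, stripped of chromatin, so that the peaks show where VRS5 can bind and not where it is bound in the plant. The reads of a bait were pooled before peaks were determined, the deposited peaks have no value per library, and intervals given here cover counting error only and treat genes or peaks as independent. The list held 99518 peaks on 1H to 7H. The pileup is the number of VRS5-FLAG reads stacked at the highest point of a peak, its summit, and the fold enrichment relates it to the local GFP-FLAG background. The RefSeq table used here gives gene spans without product names or strand, so that genes carry their RefSeq symbols and the sides of a gene are named by lower and higher coordinates.

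The limit of 4 peaks fell in a continuous series. The first 3 genes by coordinate with 4 peaks, all on 1H, were LOC123395797 with pileups of 42 to 76, LOC123405384 with 69 to 84 and LOC123425245 with 43 to 72. The first 3 with 3 peaks were LOC123447869 with pileups of 45 to 53, LOC123405729 with 39 to 54 and LOC123396417 with 53 to 83. The ranges of pileup on both sides of the limit overlapped.

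**Figure D1:**
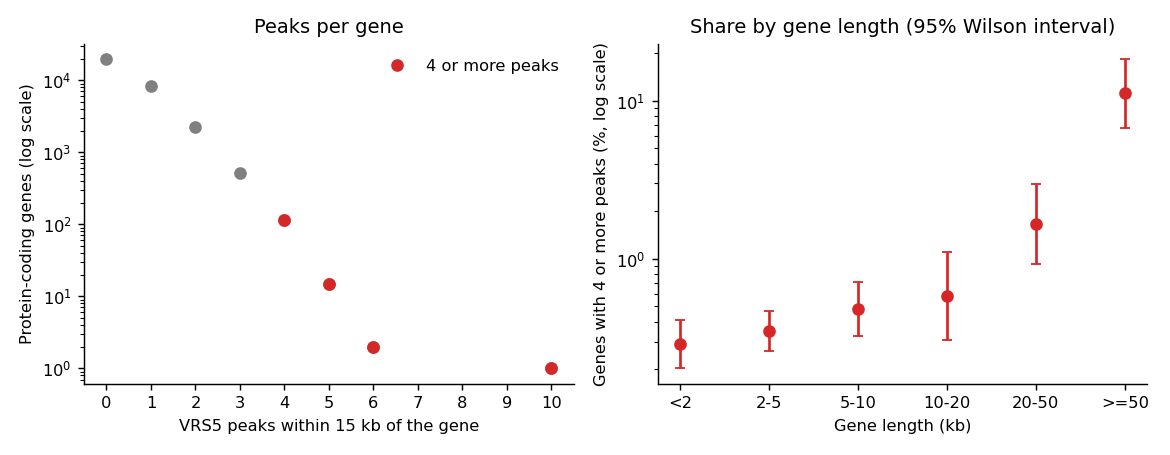
Left, number of protein-coding genes (log axis) by the number of VRS5 peaks within 15 kb, with the 132 genes of 4 or more peaks in red. Right, share of genes with 4 or more peaks (log axis) by gene length, with 95% Wilson intervals; the share runs from 0.288% below 2 kb to 11.2% at 50 kb and longer.

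Genes with 4 or more peaks, counted within 15 kb of the gene span, were longer than other genes. Their median length was 4.47 kb, with quartiles of 2.15 and 9.86 kb, against 2.86 kb for all protein-coding genes (quartiles 1.56 and 4.85 kb). Genes with 2 to 3 peaks had a median length of 3.27 kb, genes with 1 peak 3.04 kb and genes with none 2.74 kb. Length is part of the selection, since a long gene is searched over a wider window. The direction turned when peaks were counted within 15 kb of the gene midpoint, where the window does not grow with length. The 64 genes that then had 4 or more peaks had a median length of 2.47 kb, below that of all genes. Length still enters that count, since a longer gene fills more of the fixed window with its body. Pooled over genes selected on their peak count, bodies held fewer summits per 100 kb than flanks, a difference that the selection and pooling also shape. No interval was computed for the 2.47 kb. With a window of 5 kb around the gene span, 14 genes were left, with a median length of 47.9 kb. The share of genes with 4 or more peaks was 0.288% below 2 kb (31 of 10766), 0.351% from 2 to 5 kb (44 of 12549), 1.66% from 20 to 50 kb (11 of 662) and 11.2% at 50 kb and longer (13 of 116). The number of peaks per 100 kb of gene and flanks hardly moved over the same classes, from 1.40 below 2 kb to 1.42 between 20 and 50 kb and 1.56 at 50 kb and longer.

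The 132 genes divided into 24 of 20 kb or longer and 108 shorter ones, a split set after the lengths were seen. Genes of 20 kb or longer were 18.2% of the 132 and 2.54% of all protein-coding genes. In the 24 long genes, 54 of 107 peaks had their summit between gene start and gene end, and in the 108 shorter genes 23 of 446 did. The long genes had a median of 5.31 peaks per 100 kb of window and the shorter ones 12.2. On average, 100 kb of chromosome held 2.37 peaks. The gap between long and shorter genes, and their excess over the chromosome, largely follow from the selection. Every gene has at least the minimum number of peaks, most have just that number, and the window grows with gene length. No conclusion on binding density is drawn from these medians. Peaks of both kinds of genes were alike in strength, with a median pileup of 53 for the long and 55 for the shorter genes.

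LOC123446871 had the most peaks of any protein-coding gene. It is a gene of 1.44 kb on chromosome 4H, from 544607636 to 544609078, with 1 annotated transcript and 86.1 kb from the nearest other protein-coding gene. All 10 peaks lay on the side of higher coordinates, with the first summit 0.899 kb and the last 14.5 kb from the gene, and none overlapped the gene itself. From the gene outwards, their pileups were 47, 64, 63, 77, 77, 77, 95, 110, 84 and 66 reads. The GFP-FLAG background at the same summits was 9.81 to 18.7, and the fold enrichments were 3.43 to 7.38. The nearest peak to the gene was the weakest of the 10, and the strongest, with a -log10 q of 54.3, had its summit 11.9 kb away.

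The summits beside LOC123446871 were closely spaced. The 9 distances between neighbours were 630, 1361, 1704, 1283, 1669, 1657, 2657, 1332 and 1279 bp. The first and the last of the 10 peaks were 255 and 264 bp wide, below the median of 273 bp for all peaks on 1H to 7H, and the peaks between them were 456 to 786 bp wide. The run went on past the 15 kb limit, and its 6 further peaks, up to 22.2 kb from the gene, are not counted for it. These had pileups of 121, 68, 43, 53, 56 and 58 reads. Neighbouring summits less than 3 kb apart were joined into runs, a limit chosen after the distances were seen. This run of 16 peaks, 21.3 kb from first to last summit, was the longest on 1H to 7H. The second longest, with 12 peaks and pileups of 37 to 81, began 4.06 kb after the end of the first. Every other run on 1H to 7H had at most 6 peaks.

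**Figure D2:**
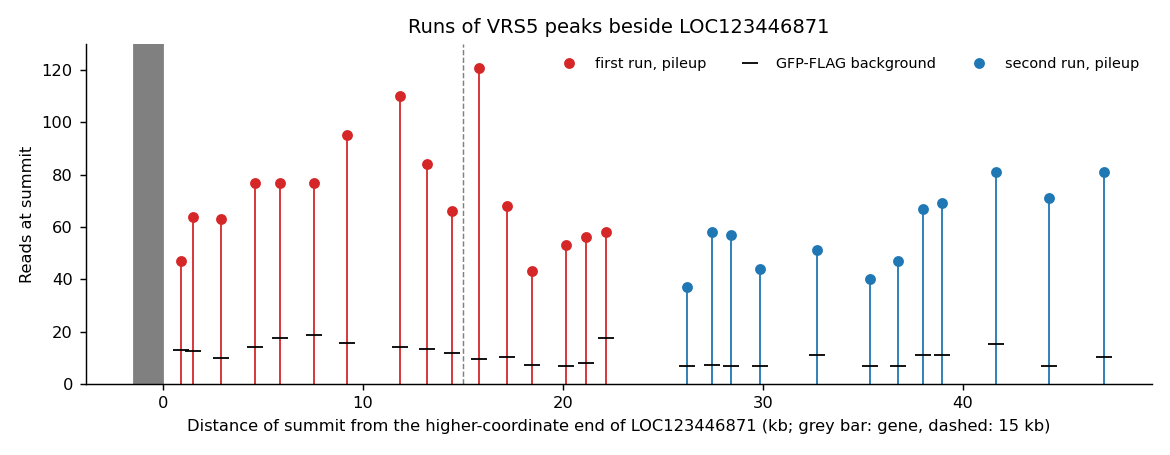
Pileup at each VRS5 summit (points, reads) by distance from the higher-coordinate end of LOC123446871 in kb. Black dashes give the GFP-FLAG background, computed back from pileup and fold enrichment. The first run (red, 16 peaks) starts 0.899 kb from the gene and passes the limit of 15 kb (dashed line), and the second run (blue, 12 peaks) ends 47.1 kb from it.

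Together both runs held 28 peaks over 46.2 kb, or 60.7 peaks per 100 kb. The median distance between summits was 1359 bp in the first run and 1415 bp in the second, and 11 of the 15 distances in the first run were between 1.2 and 1.8 kb. No gene of any kind is annotated between the first and the last of these peaks, and the nearest greenscreen region, a stretch with a large number of reads in the GFP-FLAG control, was 257 kb away. Median GFP-FLAG background over the 28 peaks, computed back from pileup and fold enrichment, was 10.6, close to the 10.9 of all peaks. Its lowest value among them, 6.91, recurred at several of these peaks and at peaks on other chromosomes. Whether such repeated values reflect control reads at the summit was not tested. The sequence under both runs, and how uniquely reads can be placed in it, was not analysed here.

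Besides LOC123446871, another 5 of the 132 genes had all their counted peaks in such a run. LOC123431084, a gene of 0.733 kb on 2H (638820932 to 638821664), had the most compact set. Its 4 summits, on the side of higher coordinates, spanned 2.65 kb at distances of 918, 1047 and 682 bp, with pileups of 44, 67, 85 and 41. LOC123424890 on 2H (55244871 to 55250284) had 4 summits on the side of lower coordinates at distances of 1359, 1310 and 1070 bp, the closest of them 9.71 kb from the gene, with pileups of 64, 59, 80 and 53. LOC123447297 on 4H (586543250 to 586545810) had pileups of 72, 48, 75 and 86 at distances of 1671, 1562 and 1194 bp. The remaining 2, LOC123416281 and LOC123416297 on 1H, shared 1 run of 4 peaks with summits 1269, 1391 and 1321 bp apart and pileups of 99, 50, 79 and 97. One of these peaks was enriched 2.91-fold, over a GFP-FLAG background of 26.5. In the whole list, 49 runs had 4 or more peaks, and 6 of them had a peak within 15 kb of a protein-coding gene.

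In most of the 132 genes the peaks were looser. The largest run inside the window had 3 peaks in 12 genes and 2 peaks in 70, and 44 genes had no pair of summits less than 3 kb apart. From the first to the last summit the peaks of a gene spanned 24.5 kb in the median, with quartiles of 17.4 and 29.99 kb and a range of 2.65 to 125 kb. Over 390 pairs of neighbouring summits the median distance was 5.64 kb, with quartiles of 2.56 and 11.3 kb. Neighbouring summits of all peaks on 1H to 7H were 24.99 kb apart in the median. Shorter distances follow from the selection, which asks for 4 peaks in a window of limited width.

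**Figure D3:**
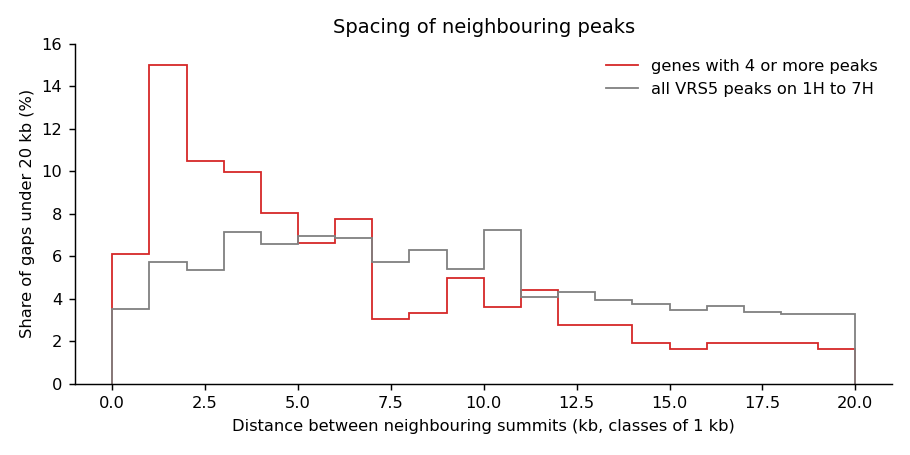
Share of distances between neighbouring summits (only those under 20 kb, in classes of 1 kb) for genes with 4 or more peaks (red, 361 distances) and for all VRS5 peaks on 1H to 7H (grey, 43523 distances). The highest class is 1 to 2 kb, with 54 distances, for the genes and 10 to 11 kb, with 7.22%, for all peaks.

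Distances of 1 to 2 kb, a class picked after the values were seen, were the most frequent for these genes. They made up 54 of the 361 distances under 20 kb, and 5.72% of such distances in the whole list. Without LOC123446871 the class held 47 of 352, or 13.4%, and the median of all distances was 5.85 kb. Distances of 10 to 11 kb, the most frequent class in the whole list, were 3.60% of those around the 132 genes. Summits less than 1 kb apart occurred in 20 of the genes, and made up 22 of the 390 distances.

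Few summits fell inside the genes themselves. Of 553 combinations of a gene and a peak, 77 (13.9%) had the summit in the gene body, 243 on the side of lower and 233 on the side of higher coordinates. The 3 flank zones of 5 kb held similar numbers of summits, with 154 within 5 kb, 161 from 5 to 10 kb and 161 beyond 10 kb, of which 5 were just past 15 kb with the peak's edge inside. This gave 11.7, 12.2 and 11.8 summits per 100 kb within 5 kb, from 5 to 10 kb and from 10 to 15 kb, and 4.24 per 100 kb in the gene bodies. For genes with 2 to 3 peaks the bodies held 384 summits in 17445 kb and the flanks 5.79, 7.11 and 7.35 summits per 100 kb. In both sets the pooled gene bodies held fewer summits per 100 kb than the pooled flanks. Both sets were selected on their peak count. A long gene adds more body length than a short one, while every gene adds the same length of flank. How much of the difference follows from this was not tested. Over all protein-coding genes, gene and flanks together held 1.40 peaks per 100 kb below 2 kb and 1.56 at 50 kb and longer. Next to the gene the spread was uneven, with 13 flank summits within 1 kb of the gene and 53 within 2 kb.

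Summits lay on both sides of 93 of the 132 genes, in 74 of them with none in the body. In 20 genes all summits lay on 1 side. At least 1 summit was inside the body of 38 genes, whose median length was 27.9 kb, and the 94 genes without one had a median length of 2.81 kb. The shortest gene with a summit in its body measured 3.27 kb.

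**Figure D4:**
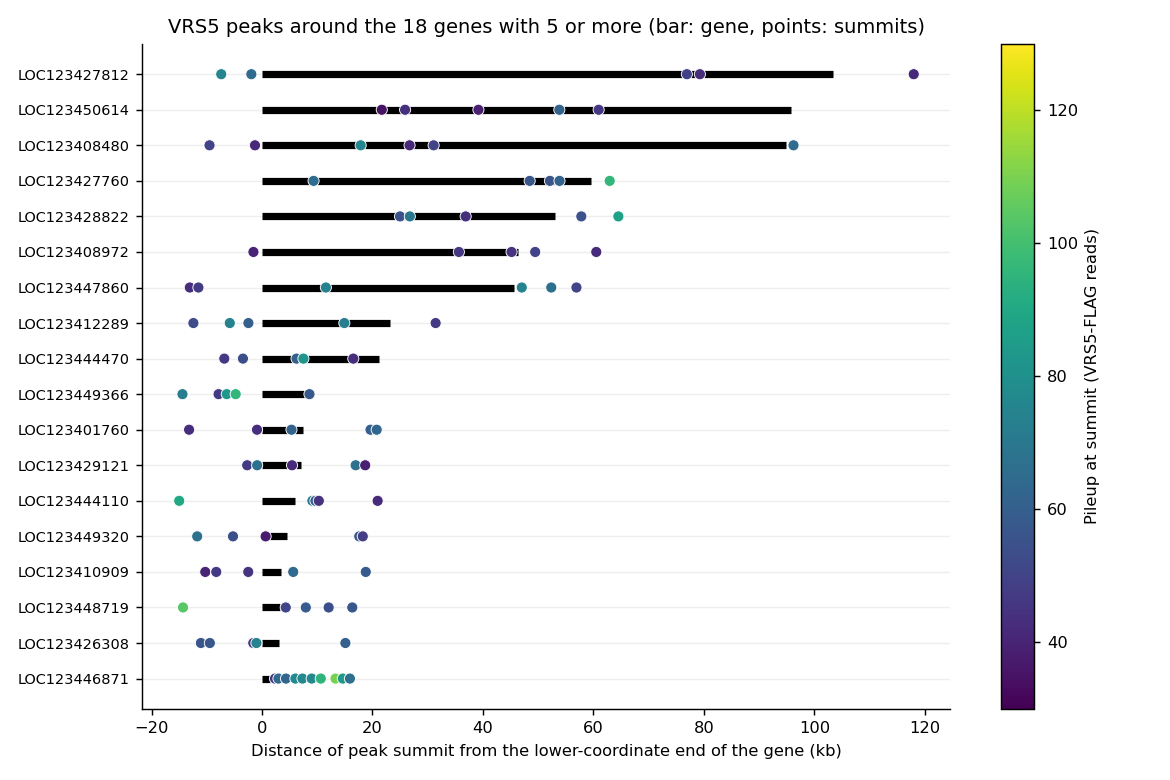
VRS5 summits (points, coloured by pileup in reads) around the 18 genes with 5 or more peaks, ordered by length, by distance in kb from the lower-coordinate end of the gene (black bar). In LOC123450614 all 5 summits lie in the gene, and in LOC123446871 all 10 lie beside it.

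LOC123450614 was the gene with the most summits in its body. This gene of 95.8 kb on 4H (457685403 to 457781159) had all 5 peaks inside, between 21.7 and 60.95 kb from its lower end. Their pileups were 35, 44, 39, 61 and 46, and the fold enrichments 3.73 to 6.998. By pileup they were weaker than most, as 4 of the 5 lay below the median of all peaks, 54. This did not hold for fold enrichment, where the median of all peaks was 4.38. In order of coordinate the fold enrichments were 4.55, 4.35, 4.67, 6.998 and 3.73. A greenscreen region touched this gene, as it did 9 others of the 132, and peaks on such regions had been removed by the authors. LOC123442127, with 85.2 kb on 3H (587395807 to 587480958), was the other gene with all summits in the body, and its 4 peaks had pileups of 55, 44, 54 and 60. Where these summits fall relative to exons was not analysed here.

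Both genes with 6 peaks were long. LOC123408480 measures 94.8 kb on 7H (132174124 to 132268921) and had 3 summits in its body, 2 before its lower end at 9.51 and 1.28 kb and 1 beyond its upper end at 1.44 kb. The pileups in order of coordinate were 50, 41, 76, 41, 50 and 65. LOC123447860 measures 45.6 kb on 4H (57063347 to 57108950) and had a single summit in the body. Its pileups in order of coordinate were 43, 47, 73, 74, 66 and 50. The 2 strongest by fold enrichment, at 8.27 and 7.40, lay 1.42 and 6.77 kb beyond its upper end. The nearest other protein-coding gene, LOC123447862, was 0.068 kb from LOC123447860, and 1 other protein-coding gene shared at least 1 of its peaks. A greenscreen region, where peaks had been removed, touched LOC123447860.

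The longest and the shortest gene had the same number of peaks. LOC123404202, with 104 kb on 6H (236571501 to 236675817), had 2 summits in the body and 2 on the side of lower coordinates, with 87.0 kb between them. Its pileups were 41, 61, 70 and 53, and its density of 2.98 peaks per 100 kb of window was the lowest of the 132 genes. This follows by construction, as it is the longest of them and has the fewest peaks the selection allows. Another protein-coding gene overlapped LOC123404202, and a greenscreen region, where peaks had been removed, touched it. LOC123404849, with 0.270 kb on 6H (6093630 to 6093899), had 2 summits on each side, 10.3 and 1.55 kb before and 9.92 and 13.5 kb after it, with pileups of 72, 83, 71 and 41. Its density was 13.2 per 100 kb. After LOC123446871, at 31.8 per 100 kb, the densest were LOC123426308 on 2H (248566944 to 248570073) and LOC123448719 on 4H (397939653 to 397942886), with 15.09 and 15.04. LOC123426308 had pileups of 56, 57, 47, 75 and 60, with 2 summits 1.59 and 1.02 kb before the gene. LOC123448719 had pileups of 104, 50, 59, 54 and 57, and only the first, 14.3 kb before the gene, lay on the side of lower coordinates.

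Single peaks near these genes were not taller than elsewhere. The 511 different peaks counted for the 132 genes, 0.514% of those on 1H to 7H, had a median pileup of 55 (quartiles 47 and 66). The median was 54 for peaks whose genes had 2 to 3 peaks at most, 53 for peaks of genes with 1, and 54 for peaks with no protein-coding gene within 15 kb. Median fold enrichment was 4.45 (quartiles 3.80 and 5.24), against 4.38 for all peaks. It was 4.28 for peaks whose genes had 2 to 3 at most and 4.25 for peaks of genes with 1. The GFP-FLAG background of the 511 peaks was 11.2 in the median, against 10.9 for all peaks. Of the 511 peaks, 55 (10.8%, 95% Wilson interval 8.36 to 13.7) were in the top 10% of all peaks by fold enrichment. Their median width was 284 bp, against 273 bp.

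The highest fold enrichment near any of the 132 genes was 9.27, while the highest of all peaks was 19.2. It belonged to LOC123440373 on 3H (517387494 to 517392266), whose 4 summits all lay on the side of higher coordinates with pileups of 60, 86, 70 and 65. The tallest pileup, 126, belonged to LOC123446769 on 4H (526440658 to 526441516). The other 3 peaks of that gene had pileups of 45, 47 and 47. Unequal peaks were common, as the tallest peak of a gene had 1.63 times the pileup of its lowest in the median, with a range of 1.02 to 2.93. With a -log10 q above 20 asked of each peak, 4 of the 132 genes still had 4 or more. LOC123446871 kept 9 of its 10 peaks, LOC123412289 on 7H kept 4 of 5, and LOC123405384 on 1H and LOC123426097 on 2H kept all 4. The pileups of LOC123405384 were 69, 73, 73 and 84, and those of LOC123426097 were 63, 66, 78 and 62.

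The 132 genes were found on all chromosomes, with 11 on 6H, 18 on 1H, 19 on 3H and 21 each on 2H, 4H, 5H and 7H. The share of protein-coding genes ran from 0.298% on 6H (95% Wilson interval 0.167 to 0.533) to 0.578% on 4H (0.378 to 0.882), with overlapping intervals. Along the chromosomes they lay less towards the ends than genes in general. The outer 20% of length at either end of the chromosomes held 73 of the 132 genes, or 55.3% (46.8 to 63.5), against 69.1% of all protein-coding genes and 35.8% of all peaks. For genes with 2 to 3 peaks the share was 58.8% (56.9 to 60.6), inside the interval of the 132 genes. It was 65.45% for genes with 1 peak. The outermost 10% of length at each end held the smallest shares of genes with 4 or more peaks. These were 0.246% of the genes at the lower end (0.149 to 0.405) and 0.225% at the higher end (0.142 to 0.355). The highest share was 0.811%, between 20 and 30% of the length (0.484 to 1.36). The rest of the outer parts did not hold fewer of the 132 genes than of all protein-coding genes. From 10 to 20% of the length lay 8.33% of the 132 genes and 8.01% of all. From 80 to 90% lay 22% of the 132 genes and 15% of all. The 24 genes of 20 kb or longer lay in these outer parts in 7 cases, or 29.2% (14.9 to 49.2), and the 108 shorter ones in 66, or 61.1% (51.7 to 69.8). Of all protein-coding genes of 20 kb or longer, 39.2% lay there, which is inside the interval of the 24.

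**Figure D5:**
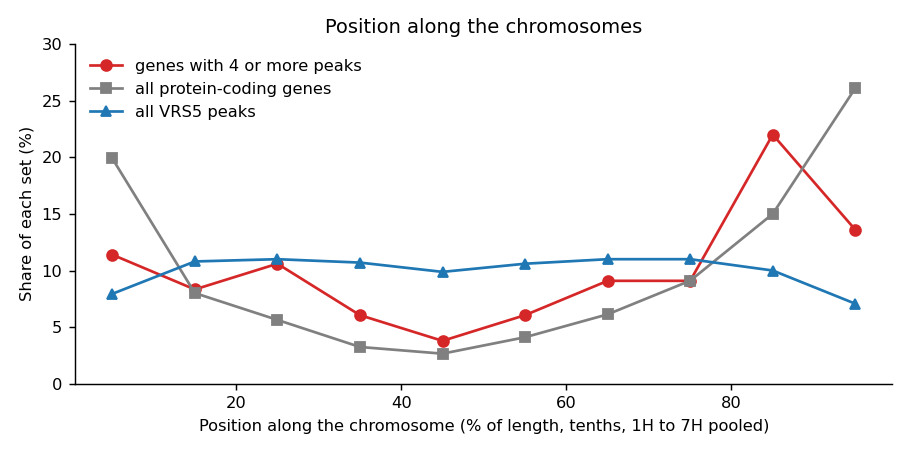
Share of genes with 4 or more peaks (red), of all protein-coding genes (grey) and of all VRS5 peaks (blue) in each 10% of chromosome length, 1H to 7H pooled. The genes with 4 or more peaks are below all genes in the first 10% of length (11.4 against 19.9%) and the last (13.6 against 26.1%). They are above all genes from 80 to 90% (22 against 15%), where 29 of the 132 lie.

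Genes with 4 or more peaks had distant neighbours. The nearest other protein-coding gene was 40.8 kb away in the median (quartiles 4.06 and 119 kb), against 28.3 kb for genes with 2 to 3 peaks, 15.2 kb for genes with 1 and 9.05 kb for genes with none. Another protein-coding gene lay within 15 kb of 42 of the 132 genes (31.8%, 95% Wilson interval 24.5 to 40.2) and of 53.8% of all genes. The part of position along the chromosome in this difference was not tested.

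Even so, neighbours shared peaks. Of the 132 genes, 48 shared at least 1 peak with another protein-coding gene, a share of 36.4% (28.7 to 44.9), and 84 shared none. For genes with 2 to 3 peaks the share was 40.8% and for genes with 1 peak 41.2%. Of the 511 peaks, 408 were within 15 kb of 1 protein-coding gene, 94 of 2 and 9 of 3. The other genes that shared a peak without reaching 4 numbered 33, of which 13 had 3 peaks, 12 had 2 and 8 had 1.

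Within the 132 genes, 22 formed 11 pairs that shared peaks, and no larger group occurred, so that the 132 genes stand for 121 separate places. In 8 pairs both genes had exactly the same 4 peaks. In a further 2, the 4 peaks of 1 gene were all among the 5 of the other, and in the last the genes had 2 peaks in common. In all but 1 of the pairs no other protein-coding gene lay between the partners. LOC123400090 and LOC123400091 on 5H were 0.008 kb apart, the smallest gap, and shared pileups of 89, 72, 54 and 99, with the first peak on 1 side of the pair and the other 3 on the opposite side. LOC123425738 and LOC123425736 on 2H, 0.087 kb apart, shared peaks with pileups of 39, 72, 40 and 63, 2 on each side of the pair. LOC123425438 and LOC123424931, also on 2H and 0.289 kb apart, shared pileups of 46, 43, 49 and 62. The run of 4 peaks beside LOC123416281 and LOC123416297, 4.06 kb apart on 1H, lay on the same side of both.

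The longer gene of a pair could enclose the other's peaks. LOC123427760 on 2H (608881221 to 608940746) overlapped LOC123427758 (608937414 to 608942078). It had 5 peaks with pileups of 65, 57, 56, 61 and 96, of which 4 were also counted for LOC123427758. For the longer gene 4 of its summits were inside the body, while for the shorter one 3 of the shared summits lay on the side of lower coordinates and 1 on the side of higher coordinates. LOC123396774 and LOC123400012 on 5H were the most distant pair, 14.0 kb apart with 1 protein-coding gene between them. A shared peak cannot be assigned to either gene from its position.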

How the data were processed

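Per the submitters' processing notes, reads were trimmed (Trimmomatic 0.39), mapped (BWA 0.7.17) and used for peak calling (MACS2 2.2.7.1), with bedtools. The authors mapped to MorexV3, pooled the 6 libraries of each bait, and kept peaks with a -log10 q above 10 outside greenscreen regions. The deposited pileup is a signal, the deposited fold enrichment a ratio of pileup to local GFP-FLAG background, each plus 1, and the q-value was deposited as -log10 q. The authors' score of greenscreen regions was not used. Depth per library was not analysed here.

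Peaks were assigned to RefSeq gene spans extended by 15 kb, and the GFP-FLAG background was computed back from pileup and fold enrichment. The counting was tested on simulated peaks over 3906 genes of 1H and matched in all. The rule for named genes took those with 7 or more peaks, the longest and shortest, the highest summed pileup and fold enrichment, the most peaks in the body, the 3 densest, 3 groups sharing peaks, and 3 genes on each side of the limit. All other named genes (in runs, with 6 peaks, the tallest peak, further pairs, LOC123442127, kept at stricter q) were added after their values were seen. The genes and quantities were chosen with earlier results of these data known. Planned results on product names and promoter motifs, and the naming of genes through them, could not be had, as no product names or sequences were used here; no sequence is printed. Python 3.11.15, numpy 2.4.6, pandas 2.3.3 and scipy 1.17.1 were used. Alternatives varied the window, threshold, peak position, merging, greenscreen margin and gene span.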

Additional observations from a re-analysis of the deposited data

How the results depend on the processing

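No paired analysis was possible because peaks were called on pooled libraries, with no value per replicate, and for the same reason no replicate could be left out. With a window of 5 kb there were 14 genes with 4 or more peaks, with a median length of 47.9 kb, 0% sharing all their peaks with another such gene, a median spacing of 7.53 kb and 42.9% in the outer 20% at either chromosome end. With 10 kb the values were 48 genes, 9.97 kb, 2.08%, 4.36 kb and 43.8%. With a -log10 q above 20 they were 4 genes, 2.74 kb, 0% and a spacing of 2.14 kb, with a median pileup of 73, and with one above 50 there were 0 genes. Counting 15 kb from the gene midpoint, in a window of fixed width, left 64 of the genes. Their median length was 2.47 kb, below the 2.86 kb of all protein-coding genes, and the spacing was 4.29 kb. A limit of 5 peaks gave 18 genes, 15.2 kb, 0% sharing and 44.4% in the outer parts, and a limit of 3 gave 647 genes with a spacing of 6.49 kb. With peaks under 1 kb apart merged, 99 of the 132 genes remained and the spacing was 6.47 kb. Smaller windows and stricter limits hold fewer peaks by construction. Using the summit (128 genes) or leaving out peaks within 1 kb of a greenscreen region (129) moved none of the 5 medians and shares beyond its interval, nor did leaving out LOC123446871, an alternative added after its values were seen, move the spacing (5.85 kb).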

Other observations

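A long non-coding RNA gene lay within 15 kb of 10 of the 132 genes (7.58%, 95% Wilson interval 4.17 to 13.4) and of 7.56% of all protein-coding genes. For pseudogenes the counts were 13 (9.85%, 5.85 to 16.1) and 11.05%, and for tRNA genes 1 (0.758%, 0.134 to 4.17) and 3.24%. More than 1 annotated transcript was given for 27.3% of the 132 genes and 18.3% of all. The share was 21.5% for genes with 2 to 3 peaks, 19.4% with 1 peak and 17.3% with none. No interval was computed for these shares, and the 132 genes were also longer.

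Greenscreen regions, from which peaks had been removed, touched 10 of the 132 genes (7.58%, 95% Wilson interval 4.17 to 13.4), against 11.01% of all protein-coding genes. Such a region lay within 15 kb of 19 of them (14.4%, 9.41 to 21.4) against 27.6% of all protein-coding genes, 20.7% of genes with 2 to 3 peaks and 29.7% of genes with no peak. Peaks removed on such regions cannot be counted here. Of the 511 peaks, 7 lay within 1 kb of a greenscreen region.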
